A study of Mus musculus with 18 samples.

Results

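The comparison described here is that of hepatocytes given an siRNA against transthyretin (Ttr) together with the TTR REVERSIR against hepatocytes given the siRNA alone. Its members were chosen by the sample titles and are 6 of the 18 libraries of the series, 3 per group. All libraries were made from total RNA of cryopreserved, plateable hepatocytes of male CD-1 mice, bought as a commercial lot, and each group received PBS or synthetic oligonucleotides. The other groups, each of 3 libraries, were PBS, the scrambled REVERSIR alone, the TTR REVERSIR alone, and the siRNA with the scrambled REVERSIR. They enter here only beside the main comparison. That the combined groups received the siRNA is read from their titles, since their treatment labels name the REVERSIR. The sources used here do not state doses, times of exposure or oligonucleotide sequences. The labels do not tell whether replicate libraries are separate cultures, so p-values measure only the spread between these libraries, which may be technical.

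Transthyretin is made mainly by hepatocytes and secreted into plasma, where it carries thyroxine and, bound to retinol-binding protein, retinol. An siRNA is loaded into the RNA-induced silencing complex, where its guide strand pairs with the target mRNA and Argonaute 2 cuts that mRNA. Conjugation to N-acetylgalactosamine (GalNAc) brings an siRNA into hepatocytes through the asialoglycoprotein receptor. A REVERSIR is a short oligonucleotide that pairs with the guide strand of such an siRNA, made to block the loaded complex so that the target mRNA is no longer silenced. The scrambled REVERSIR lacks this match. The comparison asks how much more Ttr mRNA is present when the matching oligonucleotide is given besides the siRNA, and which other transcripts differ.

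Total counts were 4911099, 4958139 and 8075490 in the siRNA libraries and 8955917, 6130900 and 7576700 in those with the TTR REVERSIR, and 11153 genes were expressed highly enough to be tested. The share of counts from the ribosomal RNAs of the mitochondrion ran from 2.07% to 8.39% with siRNA and from 2.05% to 6.69% with siRNA + TTR REVERSIR. PBS replicates 1 and 2 stood apart from all of the other 16 libraries, with shares of 24.3% and 24.1%. The 3 libraries of each group differed from one another by more than the sampling noise of their counts. All 10 hepatocyte markers were measured, and their summed level was 48500 to 52920 CPM (counts relative to the library total, after TMM scaling) with siRNA and 51540 to 55330 CPM with siRNA + TTR REVERSIR.

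Ttr mRNA (ENSMUSG00000061808, protein coding, NCBIM37 chromosome 18, 20823751 to 20832825, plus strand) was 4.34-fold higher with siRNA + TTR REVERSIR than with siRNA alone. The siRNA libraries held 220.5, 254 and 253 CPM of Ttr, from 1088, 1338 and 2166 counts. The libraries with siRNA + TTR REVERSIR held 1182, 1001 and 978 CPM, from 11349, 6397 and 7597 counts. Every library with the matching REVERSIR was thus above every library with siRNA alone, and the groups did not come near each other. The group means were 243 ± 19.1 CPM (SD, n = 3) with siRNA and 1054 ± 112 CPM with siRNA + TTR REVERSIR. On the log2 scale the change was 2.12 ± 0.0934 (SE; 95% interval 1.93 to 2.31), with adjusted p = 1.17e-13 by the quasi-likelihood test of edgeR with Benjamini-Hochberg adjustment over all genes tested. An exact two-sided permutation test of the CPM values gave p = 0.1, the smallest value that 3 libraries against 3 allow.

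**Figure D1:**
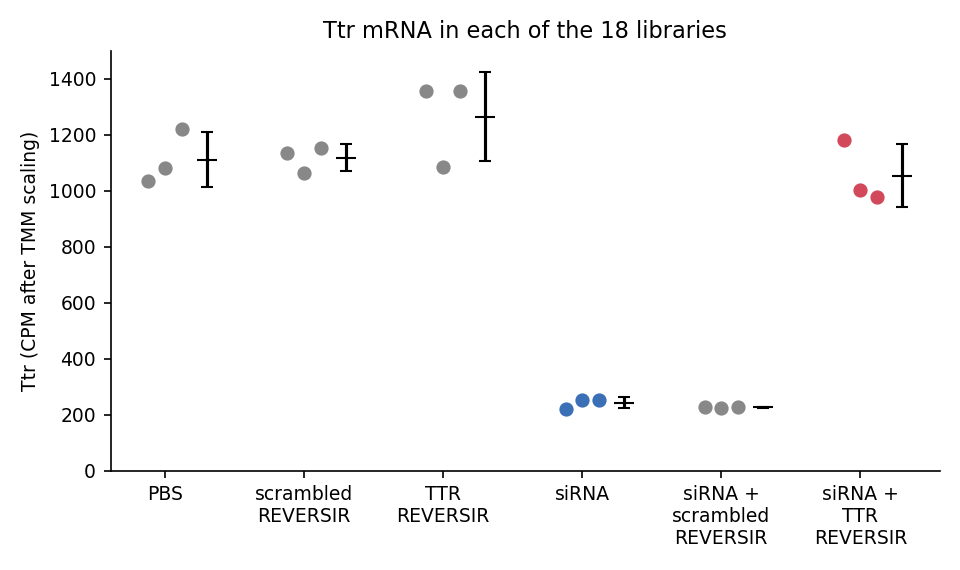
Ttr level in CPM after TMM scaling (vertical axis, from 0) in each of the 18 libraries, by group; points are libraries, black dashes with bars are means ± SD of 3. The 3 libraries with siRNA + TTR REVERSIR lie between 978 and 1182 CPM, while all 6 libraries with siRNA and no TTR REVERSIR lie between 220.5 and 254 CPM.

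The scrambled REVERSIR, added to the same siRNA, left Ttr at 227, 225 and 226 CPM, a mean of 226 ± 0.691 (SD, n = 3). These 3 values lie inside the range of the siRNA libraries. The count table of replicate 2 of this group carries the number of replicate 1 in its name, and its sample title was followed. Its counts differed from those of replicate 1 by more than sampling noise (chi-square per degree of freedom 50.6). Against siRNA alone the difference in log2 units was −0.10 ± 0.0910 (95% interval −0.29 to 0.09, adjusted p = 1.00). The matching and the scrambled oligonucleotide were also compared directly in the presence of the siRNA. There Ttr was higher with the TTR REVERSIR by 2.22 ± 0.0935 (4.66-fold, 95% interval 2.03 to 2.41, adjusted p = 4.05e-14). This comparison and the main one share the libraries with siRNA + TTR REVERSIR, so they are not independent of each other. The sources used here do not state how both oligonucleotides compare in length or chemistry.

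Without siRNA, the TTR REVERSIR had 1357, 1083 and 1355 CPM of Ttr, against 1034, 1080.3 and 1220 CPM in PBS. The 2 groups overlapped, and the difference was 0.19 ± 0.0892 (95% interval 0.00 to 0.37, adjusted p = 0.294). Scaled by library totals alone it was 0.47 (adjusted p = 0.0254), a scaling under which the median over all genes was 0.31. The effect of the TTR REVERSIR on Ttr with siRNA exceeded its effect without siRNA by 1.93 ± 0.128 in log2 units (interaction term of the same fit, 95% interval 1.67 to 2.19, adjusted p = 1.06e-09). Ttr was the only gene of 11153 for which this interaction passed the threshold in that fit, which is 0.00897% of the genes.

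The Ttr level with siRNA + TTR REVERSIR was set beside that of unsilenced cells. The libraries with siRNA + TTR REVERSIR stood at 106%, 90.1% and 88.0% of the PBS mean, on average 94.8% ± 10.1 (SD, n = 3), and the siRNA libraries at 21.8% ± 1.72. The gain of 811 CPM amounted to 93.4% of the gap of 869 CPM between siRNA and PBS. PBS replicates 1 and 2, rich in mitochondrial ribosomal RNA, held 1034 and 1080.3 CPM of Ttr, and PBS replicate 3 held 1220 CPM. How far these percentages depend on those 2 libraries was not tested. Against PBS the remaining difference was −0.08 ± 0.0890 (95% interval −0.26 to 0.11, adjusted p = 0.706), so that a shortfall larger than the lower bound lay outside the interval. Set beside the TTR REVERSIR alone in place of PBS, the level was 83.3% ± 8.85, and the gain amounted to 79.3% of a gap of 1022 CPM. That difference was −0.27 ± 0.0891 (95% interval −0.45 to −0.08). Its unadjusted p was 0.00659, its adjusted p was 1.00, and the exact permutation test gave p = 0.2. The libraries of these groups overlapped, as the highest with siRNA + TTR REVERSIR (1182 CPM) was above the lowest with the TTR REVERSIR alone (1083 CPM).

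**Figure D2:**
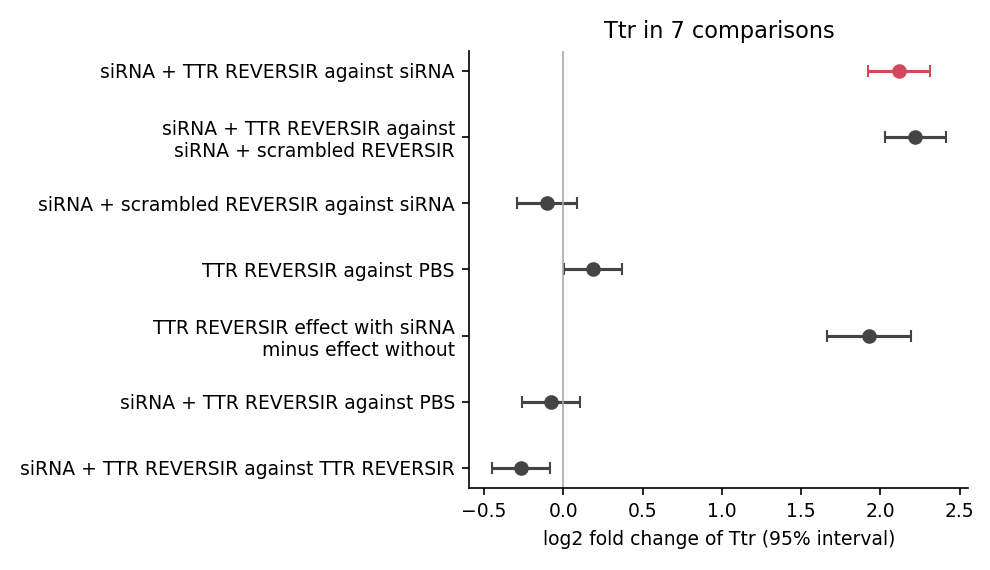
Fitted log2 fold change of Ttr (horizontal axis) with its 95% interval in 7 comparisons, each named at the left; the main comparison is in red. The intervals of the comparisons of siRNA + TTR REVERSIR with siRNA (1.93 to 2.31) and with siRNA + scrambled REVERSIR (2.03 to 2.41) lie far from 0, while those against PBS (−0.26 to 0.11) and of the scrambled REVERSIR against siRNA (−0.29 to 0.09) include 0. That of siRNA + TTR REVERSIR against the TTR REVERSIR alone (−0.45 to −0.08) lies below 0. Those of the TTR REVERSIR against PBS (0.0042 to 0.37) and of the interaction (1.67 to 2.19) lie above 0.

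Of the 11153 genes tested, Ttr alone passed an adjusted p of 0.05 between siRNA + TTR REVERSIR and siRNA, which is 0.00897% of the genes. Before adjustment 667 genes (5.98%) were under 0.05, 306 of them higher and 361 lower. The median log2 fold change of all genes was −0.0036, and 95% of genes lay between −0.41 and 0.37. A fitted change of 2-fold or more was found for 15 genes including Ttr, 0.134% of the total. Of these, Cdh17, a cadherin of liver and intestine, was at −1.35 ± 0.359 with a mean level of only 1.21 on the log2 CPM scale, and Lars2, the mitochondrial leucyl-tRNA synthetase gene, was at −1.32 ± 1.14. Lars2 varied more within the siRNA group than between the groups. It stood at 5371, 17280 and 839 CPM with siRNA and at 4053, 2707 and 2660 CPM with siRNA + TTR REVERSIR. Gm15564, a gene with a predicted name only, was likewise at 204, 580.1 and 33.1 CPM with siRNA, against 173, 101 and 123 CPM. These genes, and the nuclear noncoding RNA Neat1 (0.93 ± 0.365, adjusted p = 0.779), were singled out after their values were seen.

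**Figure D3:**
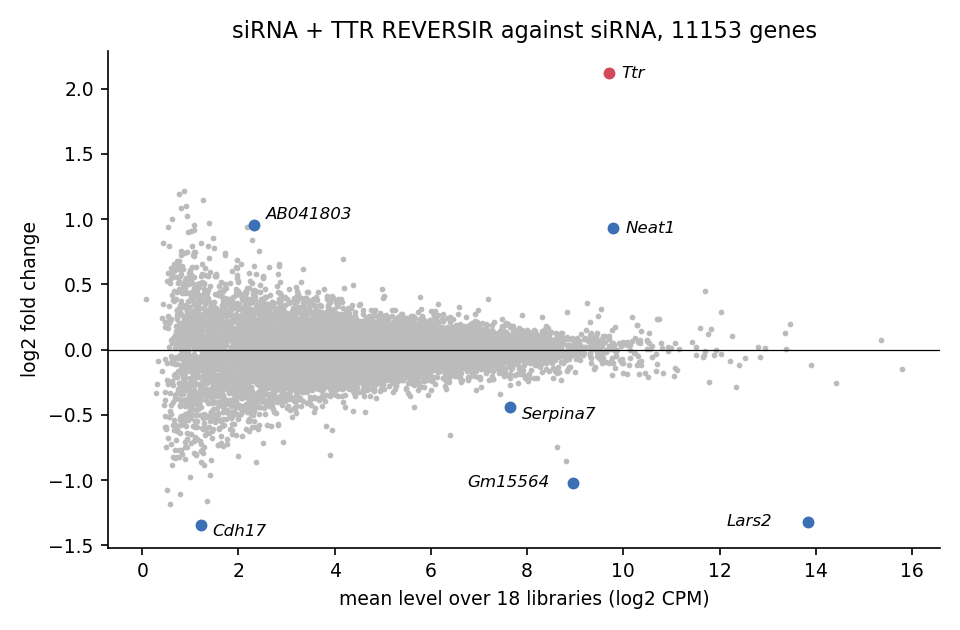
Each grey point is 1 of the 11153 genes tested, by its mean level over all 18 libraries (horizontal axis, log2 CPM) and its log2 fold change between siRNA + TTR REVERSIR and siRNA (vertical axis); named genes are coloured. Ttr, at 2.12, stands away from all other genes of similar level, while Lars2 (−1.32) and Gm15564 (−1.02) are abundant genes with wide error.

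The precision of the fit sets what else could have been seen. For 10522 of the 11152 genes other than Ttr (94.4%) the 95% interval of the fold change lay within 2-fold in either direction, and for 8739 genes (78.4%) it lay within 1.5-fold. Among the 2639 genes with a mean log2 CPM under 3 these shares were 76.8% and 22.7%, and among the 2786 genes at 6 or more they were 99.6% and 99.2%. For most of these weakly expressed genes the interval therefore reached a 1.5-fold difference or beyond. The number of calls also depended on the tool. DESeq2, which kept 2271 genes after its own filter on low counts, called 14 genes (0.616%), 4 higher and 10 lower. edgeR with no filter on low counts called 21 of 20065 genes (0.105%). Ttr was in both sets, and so were Serpina7 and Ccng2. The calls with no filter also held Lars2, Gm15564 and Neat1 (0.94, adjusted p = 6.65e-28 by edgeR). They held n-R5-8s1 (−0.84) and 5_8S_rRNA (−0.79) too, named here after their values were seen. In that fit the standard error of Gm15564 was 0.0789, against 1.005 with the filter, although its siRNA libraries ran from 33.1 to 580.1 CPM.

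The genes given here that DESeq2 called besides Ttr differed by little. The complement gene C3 was at −0.25 ± 0.0482 by DESeq2 (adjusted p = 0.000383), and 3 other plasma protein genes, C4b (−0.18), Clu, which encodes clusterin (−0.20), and Serping1, which encodes the C1 inhibitor (−0.17), had adjusted p = 0.0443 there. The same adjusted p was reached by the actin crosslinker Flna (−0.17), by Myo1c (−0.19), an unconventional myosin, by Abhd2 (−0.21), by Serpina7 (−0.44), and by Npm1 (0.19), Snx18 (0.28) and Ccng2 (0.33). By the quasi-likelihood test C4b had adjusted p = 0.689, Clu 0.689, Serping1 0.648 and Flna 0.689. C4b, Clu, Serping1, Flna, Myo1c, Abhd2 and Npm1 were named after their values were seen.

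After Ttr, the 23 genes with the smallest p had adjusted p-values between 0.556 and 0.643 by the quasi-likelihood test, so that none passed. They are given as values. Serpina7 encodes thyroxine-binding globulin, another plasma carrier of the hormone that transthyretin carries. It was at 202, 229 and 262 CPM with siRNA and at 181, 150.4 and 180.0 CPM with siRNA + TTR REVERSIR, and the groups did not overlap. The fitted difference was −0.44 ± 0.103. With the scrambled REVERSIR in place of the matching one, Serpina7 differed from the same siRNA libraries by −0.37 ± 0.103, and between the 2 REVERSIR oligonucleotides by −0.07 ± 0.103 (adjusted p = 1.00).

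Ccng2 encodes cyclin G2, an unusual cyclin linked to arrest of the cell cycle. It was at 90.6, 82.2 and 76.1 CPM with siRNA and at 108, 104 and 98.5 CPM with siRNA + TTR REVERSIR, with no overlap and a difference of 0.33 ± 0.0744. With the scrambled REVERSIR it was at 0.31 ± 0.0743 against the same siRNA libraries, and the 2 oligonucleotides differed by 0.02 ± 0.0718. Rg9mtd1, a subunit of the mitochondrial enzyme that trims the 5′ ends of tRNAs, was at 57.2, 53.9 and 54.2 CPM with siRNA and at 68.2, 67.1 and 67.1 CPM with siRNA + TTR REVERSIR. Its groups did not overlap either, and the difference was 0.30 ± 0.0656. Snx18, a sorting nexin of endocytic membranes, was at 83.9, 79.9 and 83.9 CPM against 101, 100.3 and 99.2 CPM, a difference of 0.28 ± 0.0676. Osgin1, an oxidative stress-induced growth inhibitor gene, was at 56.7, 56.4 and 65.9 CPM against 42.5, 39.6 and 50.6 CPM, a difference of −0.44 ± 0.101. For both Snx18 and Osgin1 the groups stood apart, with Snx18 higher and Osgin1 lower in all 3 libraries with the REVERSIR.

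**Figure D4:**
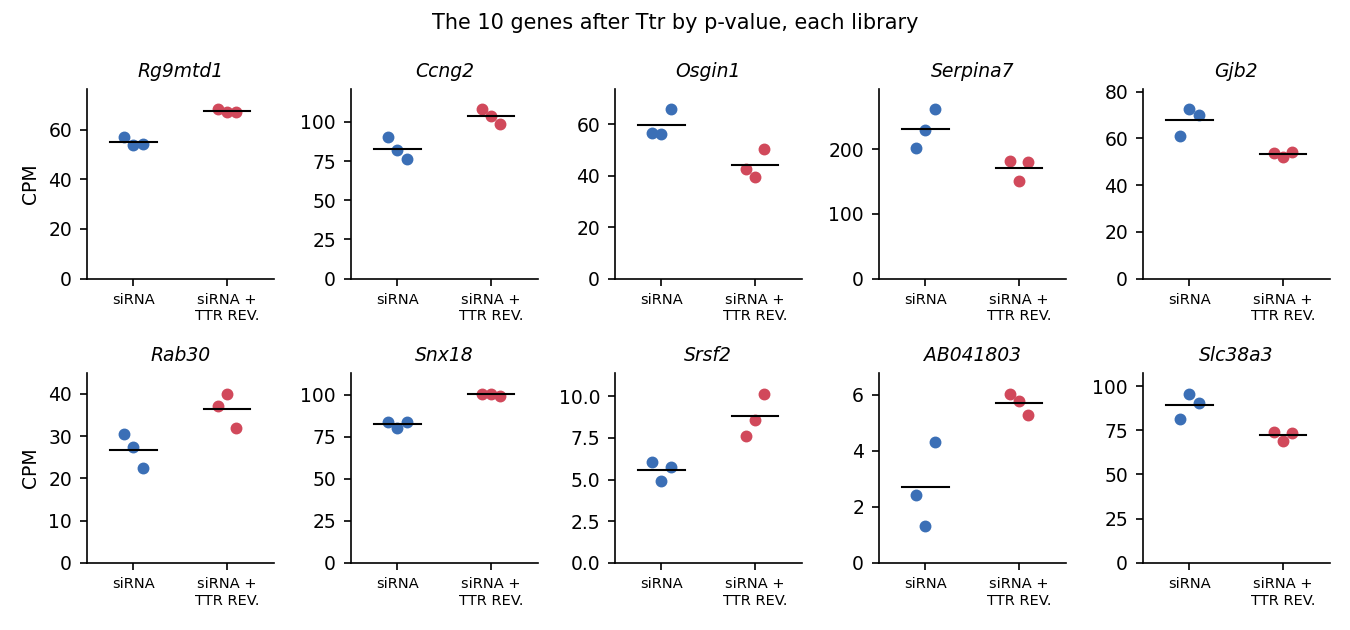
CPM (vertical axes, from 0) in the 3 siRNA libraries (blue) and the 3 libraries with siRNA + TTR REVERSIR (red) for the 10 genes that follow Ttr by p-value; points are libraries and lines are means. The groups do not overlap for any of these genes, and none passed the adjusted threshold.

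Among the other genes of this set, those with higher values included Rab30, a small GTPase of the Golgi (0.46 ± 0.113), Srsf2, a splicing factor (0.64 ± 0.162), AB041803 (0.95 ± 0.243), Clk1, a kinase of splicing factors (0.35 ± 0.0946), and Arhgap29, a GTPase-activating protein (0.28 ± 0.0756). Those with lower values included Gjb2, the gap junction protein connexin 26 (−0.35 ± 0.0825), Slc38a3, a glutamine transporter (−0.30 ± 0.0777), Abca1, the cholesterol exporter (−0.24 ± 0.0651), and Kat2a, a histone acetyltransferase (−0.47 ± 0.126). The other lower values were those of Lamc1, a laminin chain (−0.27 ± 0.0726), Vim, which encodes vimentin (−0.31 ± 0.0838), Spnb3, a spectrin (−0.31 ± 0.0848), Plekhg2, an activator of small GTPases (−0.48 ± 0.128), and Mkl1, a coactivator of serum response factor (−0.62 ± 0.173). Aldh1a1, C3 and Cdh17 were lower in their mean as well. Of the 23 genes, Aldh1a1 and Cdh17 had overlapping groups. Over all genes tested 13.3% had groups that did not overlap, and these genes were ranked by p, so that their separation is no result of its own. Without siRNA replicate 3, AB041803 passed as a second gene (1.61, adjusted p = 0.0308), that library holding 4.33 CPM of it against 2.43 and 1.33 CPM in the other siRNA libraries. With the scrambled REVERSIR against siRNA, all of the 23 genes but Plekhg2 (0.03 ± 0.121) differed in the same direction as in the main comparison. AB041803 was there at 0.87 ± 0.244, Slc38a3 at −0.27 ± 0.0775 and Aldh1a1 at −0.30 ± 0.0927, while Abca1 was at −0.07 ± 0.0645. Both comparisons share the siRNA libraries, so they are not independent. Between the TTR and the scrambled REVERSIR none of the 23 genes passed the adjusted threshold.

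The retinol and thyroid hormone list holds partners of transthyretin and the genes that handle its cargo. Of 17 measured members 0 passed the adjusted threshold, and 2 had an unadjusted p under 0.05, both lower, against a background of 3.24% of all genes in that direction. The median of the list was −0.08, beside −0.0036 for all genes. Rbp4, the retinol-binding protein that travels with transthyretin, was at 939, 878 and 732 CPM with siRNA and 684, 829 and 856 CPM with siRNA + TTR REVERSIR. These ranges overlapped, and Rbp4 differed by −0.10 ± 0.127. Besides Serpina7, the lower member was Aldh1a1, an enzyme that makes retinoic acid, at 169, 197 and 228 CPM against 169, 142 and 160 CPM (−0.34 ± 0.0929, adjusted p = 0.643). Hr, a corepressor for nuclear receptors, was at −0.77 ± 0.372 and Rdh11, a retinol dehydrogenase, at 0.10 ± 0.0704. Dio1, the liver deiodinase, was at 0.25 ± 0.351 and the thyroid hormone receptor gene Thrb at −0.12 ± 0.136.

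Components of RNA interference and of the uptake of conjugated oligonucleotides were looked at next. Of 19 measured genes of the RNA interference machinery 0 passed, 1 was higher and 1 lower at an unadjusted p under 0.05 (background 2.74% and 3.24%), and the median was −0.05. Eif2c2, which encodes Argonaute 2, was at 101, 90.5 and 103 CPM with siRNA and 78.6, 100.3 and 108 CPM with siRNA + TTR REVERSIR, a difference of −0.04 ± 0.12 with overlapping groups. Dicer1 was at −0.03 ± 0.0916. The members with the smallest p were the RNA-editing gene Adar (−0.21 ± 0.0702), the microRNA processing factor Dgcr8 (0.20 ± 0.0963), Tnrc6c, an Argonaute partner (−0.20 ± 0.112), and the exonuclease Xrn2 (0.10 ± 0.0639). Of 20 genes of the asialoglycoprotein receptor and the endolysosome, 0 were past even the unadjusted level, with a median of −0.02 and a range from −0.11 to 0.13. The receptor subunit genes Asgr1 and Asgr2 were at 0.03 ± 0.0877 and 0.13 ± 0.0832. Vps35 of the retromer was at 0.12 ± 0.0571, and the lysosomal cholesterol carriers Npc1 and Npc2 were at −0.11 ± 0.080 and −0.10 ± 0.0616.

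Sensing of foreign RNA and inflammation were covered by 2 lists. None of 24 measured genes of interferon response and RNA sensing passed, and the median was 0.01. At an unadjusted p under 0.05, 2 were lower and 0 higher, against 3.24% and 2.74% of all genes. These were Irf7, a transcription factor of the interferon response (−0.17 ± 0.0675), and Oas1a, an RNA sensor (−0.23 ± 0.102). The antiviral gene Mx1 was at 0.45 ± 0.234 and Oasl1 at −0.13 ± 0.0794. Isg15, an interferon-induced modifier protein, was at 118, 131 and 130 CPM with siRNA and 125, 96.4 and 122 CPM with siRNA + TTR REVERSIR, with overlapping groups. Of 20 acute phase and inflammation genes 0 passed, while 5 were lower and 1 higher at an unadjusted p under 0.05, against 3.24% and 2.74% of all genes. The median was −0.07. The members with the smallest p were the plasma proteins haptoglobin (Hp, −0.28 ± 0.0894) and Saa4 (−0.30 ± 0.114), the iron hormone hepcidin (Hamp, −0.28 ± 0.110), and the interleukin-1 receptor antagonist (Il1rn, −0.49 ± 0.205). Saa4 and Il1rn had groups that did not overlap, those of Hp and Hamp did. With the scrambled REVERSIR against the same siRNA libraries, Hp was at −0.19 ± 0.0894 and Saa4 at −0.17 ± 0.112. Hamp was there at −0.39 ± 0.11 and Il1rn at −0.59 ± 0.207.

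Of 22 measured genes of ER stress and the integrated stress response 0 passed the adjusted threshold, and 3 were lower at an unadjusted p under 0.05, against 3.24% of all genes. In 7 of the 22 every library with siRNA + TTR REVERSIR was below every siRNA library, against 6.6% of all genes. The median was −0.10, the lowest of the 16 lists. The 3 genes were Pdia4 (−0.20 ± 0.0575) and Pdia6 (−0.19 ± 0.0685), which encode disulfide isomerases of the ER, and Creld2, an ER stress-induced gene (−0.45 ± 0.158). Dnajb9, an ER cochaperone, was at 0.16 ± 0.0778. With the scrambled REVERSIR against the same siRNA libraries, Pdia4 was at −0.14 ± 0.0573 and Pdia6 at −0.14 ± 0.0684. Creld2 was there at −0.33 ± 0.155 and Dnajb9 at 0.09 ± 0.0778. The chaperone gene Hspa5 was at 1264, 1317 and 1345 CPM with siRNA and 1237, 1215 and 1227 CPM with siRNA + TTR REVERSIR, without overlap, but its difference of −0.09 ± 0.0817 was close to its error. Of the 16 p53 targets, Ccng1, cyclin G1, was at 0.18 ± 0.0611, Eda2r at 0.17 ± 0.0882, Sesn1 at 0.19 ± 0.107 and Zmat3 at 0.16 ± 0.114. The median of the p53 list was 0.10, with 0 past the adjusted threshold and Ccng1 the single member higher at an unadjusted p under 0.05, against 2.74% of all genes.

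Mitochondrially encoded mRNAs had the highest median of the 16 lists, 0.26 beside −0.0036 for all genes. Of the 13 members, 7 were measured, and the other 6 had 0 counts in all 6 libraries. None of the 7 passed the adjusted threshold, while 5 were higher at an unadjusted p under 0.05 (background 2.74%), and in 4 the groups did not overlap (background 6.71% in that direction). Their summed level was 13650 to 14660 CPM with siRNA and 15850 to 17060 CPM with siRNA + TTR REVERSIR. The subunit of cytochrome c oxidase mt-Co1 was at 9744, 10260 and 10260 CPM against 11520, 11410 and 11730 CPM (0.20 ± 0.0910). The complex I subunit gene mt-Nd4 was at 467, 461 and 608 CPM against 581, 655 and 733 CPM (0.36 ± 0.129), with overlap. For mt-Nd2 the difference was 0.32 ± 0.122, for mt-Nd1 0.24 ± 0.106 and for mt-Cytb 0.26 ± 0.107. With no filter on low counts, mt-Nd2 (adjusted p = 0.0347), mt-Nd4 (0.00310) and mt-Nd6 (0.000176) were among the 21 genes called by edgeR. In that fit the standard error of mt-Nd4 was 0.0765, against 0.129 with the filter. With the scrambled REVERSIR against the same siRNA libraries, mt-Nd4 was at 0.17 ± 0.129 and mt-Nd2 at 0.19 ± 0.122. There mt-Nd1 was at 0.13 ± 0.106 and mt-Cytb at 0.10 ± 0.107. Between the TTR and the scrambled REVERSIR these 4 genes ran from 0.11 ± 0.106 (mt-Nd1) to 0.19 ± 0.129 (mt-Nd4). These mRNAs come from 1 genome and share its transcription units, so they are not independent measures. The share of mitochondrial ribosomal RNA, 2.07% to 8.39% with siRNA and 2.05% to 6.69% with siRNA + TTR REVERSIR, overlapped between the groups, and its part in these values was not tested.

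**Figure D5:**
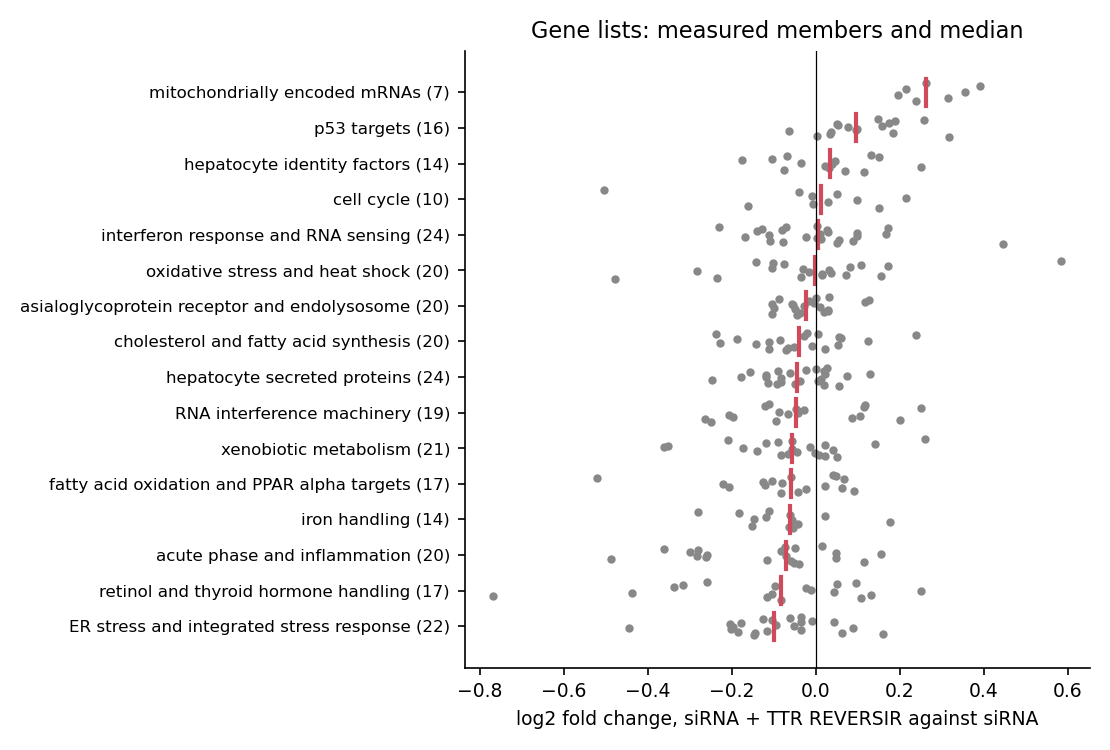
Log2 fold change between siRNA + TTR REVERSIR and siRNA (horizontal axis) of the measured members (grey points) of 16 gene lists, with the median of each list as a red line and the number of measured members in parentheses. Medians run from −0.10 for ER stress to 0.26 for mitochondrially encoded mRNAs, and 0 members passed the adjusted threshold.

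The remaining lists describe the secretory and metabolic work of the hepatocyte, and 0 of their members passed. For the 24 secreted protein genes the median was −0.04, with 1 higher and 2 lower at an unadjusted p under 0.05 (2.74% and 3.24% of all genes, also for the lists that follow in this paragraph). C3 was at 3640, 3788 and 3757 CPM with siRNA and 3025, 3233 and 3163 CPM with siRNA + TTR REVERSIR, without overlap (−0.25 ± 0.0686, adjusted p = 0.643). The fibrinogen chains Fga and Fgb were at −0.18 ± 0.0736 and −0.16 ± 0.0778, and coagulation factor IX (F9) at 0.13 ± 0.0622. Albumin (Alb) was at 0.07 ± 0.0713. Transcription factors of hepatocyte identity had a median of 0.03 and 1 of 14 higher at that level, with Ppara at 0.25 ± 0.102, Foxa3 at 0.15 ± 0.12, Cebpb at 0.13 ± 0.112 and Rxra at −0.08 ± 0.0845. Xenobiotic metabolism, with 21 measured genes, had a median of −0.06 and 2 lower. The cytochrome P450 gene Cyp1a2 was at −0.17 ± 0.0816 and Cyp3a11 at 0.14 ± 0.0765, the glutathione transferase Gstm1 was at −0.12 ± 0.0563, and the bilirubin-conjugating Ugt1a1 at 0.26 ± 0.127.

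In lipid metabolism, 20 measured genes of cholesterol and fatty acid synthesis had a median of −0.04, with 1 higher and 3 lower at an unadjusted p under 0.05. Over all genes 2.74% were higher and 3.24% lower at this level, which applies to each list named next. Insig1, a sterol-sensing brake on SREBP processing, was at 0.24 ± 0.0687, while Dhcr7, an enzyme of the last steps of cholesterol synthesis, was at −0.24 ± 0.0957 and fatty acid synthase (Fasn) at −0.23 ± 0.101. The 17 genes of fatty acid oxidation had a median of −0.06 and 1 lower, with the carnitine transferases Cpt1a and Cpt2 at −0.21 ± 0.0823 and −0.13 ± 0.0823 and Vnn1 at −0.52 ± 0.354. The oxidative stress and heat shock list had a median of −0.0014, with 2 of 20 lower. In it the small heat shock protein Hspb1 was at −0.24 ± 0.0817, the cystine transporter Slc7a11 at −0.28 ± 0.102, Nqo1 at −0.48 ± 0.242 and glutathione reductase (Gsr) at −0.10 ± 0.0591. Iron handling genes had a median of −0.06 and 1 of 14 lower, with the transferrin receptors Tfrc at −0.15 ± 0.0767 and Trfr2 at −0.15 ± 0.0817 and the iron exporter Slc40a1 at 0.18 ± 0.0925. Of 19 cell cycle genes only 10 were expressed highly enough to be tested, with a median of 0.01 and 0 at an unadjusted p under 0.05. Ccnd1 was at −0.50 ± 0.355, Tyms at 0.21 ± 0.206, Mcm2 at −0.16 ± 0.160 and Rrm2 at 0.10 ± 0.122.

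Markers of other cell types of the liver were summed in the same libraries. Of 10 Kupffer cell and macrophage markers 5 were tested, and their summed level, most of it Cd68, was 290 to 334 CPM with siRNA and 313 to 351 CPM with siRNA + TTR REVERSIR. Clec4f, which defines Kupffer cells, was at 5.27, 6.45 and 5.61 CPM with siRNA and 4.48, 3.60 and 3.73 CPM with siRNA + TTR REVERSIR (−0.53 ± 0.197, adjusted p = 0.72), and C1qb was also lower without overlap (−0.79 ± 0.328, adjusted p = 0.784). The other 3 tested markers had overlapping groups, with Cd68 at 0.08 ± 0.0901, C1qa at 0.18 ± 0.254 and Csf1r at −0.29 ± 0.401. Markers of liver endothelium summed to 53.5 to 57.4 CPM against 49.4 to 54.3 CPM, and those of stellate cells and fibroblasts to 117 to 128 CPM against 126 to 133 CPM. Cholangiocyte markers summed to 11.58 to 11.96 CPM against 10.95 to 14.16 CPM, with Cftr at 0 counts in all 6 libraries. None of 8 lymphocyte and neutrophil markers reached the level needed for testing, and Cd79a, Nkg7, S100a9 and Ly6g had 0 counts in all 6 libraries, as had the erythroid gene Hbb-b1. Of the 4 erythroid markers 1 was tested, Alas2, with a difference of −0.04. It had 106, 96 and 156 counts with siRNA and 180, 132 and 129 with siRNA + TTR REVERSIR. In RNA from whole cultures, fewer cells of a type and less RNA per cell cannot be told apart.

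The siRNA alone had been compared with PBS in the same fit, and 291 genes other than Ttr passed there, 113 higher (1.01% of the genes tested) and 178 lower (1.6% with Ttr), together with Ttr 2.62%. Their values with the REVERSIR are set side by side only, because libraries are shared with the comparison that chose the genes. The comparison with siRNA shares its siRNA libraries, and the comparison with PBS shares its PBS libraries. The 113 genes that were higher with siRNA had a median of 0.47 there, of −0.12 between siRNA + TTR REVERSIR and siRNA, and of 0.37 between siRNA + TTR REVERSIR and PBS. The 178 lower genes had medians of −0.38, 0.10 and −0.28 in the same order. For Ttr the same 3 values were −2.19, 2.12 and −0.08. In siRNA + TTR REVERSIR against TTR REVERSIR alone, which shares no library with siRNA against PBS, the medians of the 113 and the 178 genes were −0.04 and 0.01. There 0 of either set passed the adjusted threshold, but so did 0 of all 11153 genes tested, so this count says nothing particular to these sets. Of all genes 495 (4.44%) had an unadjusted p under 0.05 there. The 2 PBS libraries rich in mitochondrial ribosomal RNA belong to the control of siRNA against PBS and of siRNA + TTR REVERSIR against PBS. Their part in these calls and medians was not tested here.

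Single genes of that set, 8 in each direction with the largest change among those with a mean log2 CPM of 1 or more and groups that did not overlap between siRNA and PBS, are given with their value for siRNA against PBS first and for siRNA + TTR REVERSIR against siRNA second. Among the higher ones were Ccdc22, of an endosomal sorting complex (2.16 and −0.01), Tsfm, a mitochondrial translation elongation factor (1.00 and −0.11), and Kptn, a regulator of mTORC1 signalling (0.95 and −0.36). Gm3272 (2.32 and −0.43), Snora68 (1.82 and 0.24), RP24-323I5.2 (1.07 and −0.11), BC002230 (1.04 and −0.26) and Gm10119 (0.94 and −0.03) were the others. The 8 lower ones were Lipo1, a lipase family gene (−0.87 and 0.22), Rps15-ps2 (−1.71 and 1.15), Gm7334 (−1.67 and 0.57), Gm16869 (−1.59 and −0.26), Gm14295 (−1.16 and 0.23), Mup-ps22 (−1.16 and 0.16), Gm10033 (−0.97 and 0.55) and Gm13835 (−0.90 and 0.28). Rps15-ps2 and Mup-ps22 are named as pseudogenes, and the counting could have split reads between them and their parent genes. The strand of counting is not given, so values of genes that overlap others, such as the small nucleolar RNA Snora68, are uncertain as well.

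Beside these, the comparison of siRNA + TTR REVERSIR with siRNA + scrambled REVERSIR called 1 gene, Ttr (0.00897%), with 242 genes (2.17%) at an unadjusted p under 0.05, and DESeq2 also called 1 (0.00498%). After Ttr its smallest p-values belonged to AC150277.1 (1.56 ± 0.347), Plekhg2 (−0.51 ± 0.123), Snora68 (1.14 ± 0.277) and Snord15a (1.20 ± 0.299), which had adjusted p of 0.817 or above. The scrambled REVERSIR added to the siRNA called 0 genes by edgeR, with 415 (3.72%) at an unadjusted p under 0.05, and 0 by DESeq2. There the glycogen-targeting phosphatase subunit gene Ppp1r3b had the smallest p (0.38 ± 0.0771, adjusted p = 0.613), and it was at 0.27 ± 0.0777 between siRNA + TTR REVERSIR and siRNA.

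The TTR REVERSIR alone against PBS gave 78 calls (0.699%), a number that was 978 without PBS replicate 3, 375 without TTR REVERSIR replicate 2, 0 or 1 without any other single library of these groups, and 0 without PBS replicates 1 and 2 together. Its genes with the smallest p were Car3, a carbonic anhydrase (−0.69 ± 0.0989), Rab9, a GTPase of late endosomes (−0.58 ± 0.102), Snora68 (2.10 ± 0.377), the major urinary protein gene Mup16 (−0.98 ± 0.177), which has near-identical copies, and Ndufv2 of respiratory complex I (−0.62 ± 0.114). Against the same PBS libraries, siRNA alone was at −0.36 for Car3, −0.58 for Rab9, 1.82 for Snora68, −0.79 for Mup16 and −0.58 for Ndufv2. Between siRNA + TTR REVERSIR and siRNA the TTR REVERSIR came with −0.04 ± 0.0923 for Car3, 0.17 ± 0.0934 for Rab9, 0.24 ± 0.265 for Snora68, 0.27 ± 0.16 for Mup16 and 0.17 ± 0.106 for Ndufv2. The difference between the 2 settings had adjusted p = 0.082 for Car3, Rab9, Mup16 and Ndufv2 and adjusted p = 0.129 for Snora68, so it was not called for any of them. Psmb8, an immunoproteasome subunit gene, had the same adjusted p of 0.082 (interaction −0.65 ± 0.128), with −0.19 ± 0.0849 in the presence of the siRNA.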

How the data were processed

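The values are raw read counts per gene as deposited by the authors, 1 table of 37991 Ensembl genes for each of 18 libraries. The submitters' processing notes name STAR, the build NCBIM37 and DESeq2. Not given in the sources used here are versions, counting tool, strand and filters. The authors' tables of comparisons with PBS were not used. Symbols and positions came from the GENCODE annotation of NCBIM37 (37205 identifiers matched), with RefSeq synonyms for list symbols, of which 1 of 372 had no match.

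Genes were kept by filterByExpr (11153), scaled by TMM and fitted over all 18 libraries with edgeR 4.0.16 quasi-likelihood tests in R 4.3.3, the group being the only term, with 12 residual degrees of freedom before moderation. The Benjamini-Hochberg adjustment ran over all 11153 genes, with 0.05 as the threshold. Standard errors come from the F statistic and the log2 fold change. The steps were tested on simulated data. Members, lists and the naming rule were chosen with earlier results of these data known.

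The rule named Ttr, the genes with the smallest p in the main comparison up to 24 in all (mean log2 CPM 1 or more), the 4 members of each list with the smallest p, the 8 highest and 8 lowest called genes in siRNA against PBS with that level and no overlap of the groups, and 5 genes per other comparison. Some genes that the rule takes are not reported here. A U2 RNA that it takes is left out, since its symbol names several genes. Alternatives were DESeq2 1.42.0, other scalings and filters, the compared groups alone, a replicate block, and leaving out libraries. Total counts ran from 1755819 to 10145265.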

Additional observations from a re-analysis of the deposited data

Results flagged for a closer look

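In the main fit, Ttr was the single result whose effect differed between 2 settings by a test of the difference itself. The change with the TTR REVERSIR was larger with siRNA present (2.12 on the log2 scale, higher in 3 of 3 libraries than in every siRNA library) than without it (0.19) by 1.93, with adjusted p = 1.06e-09 from the interaction term of the edgeR fit. Groups of 3 libraries are too small for a test of single outlying libraries.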

How the results depend on the processing

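The rise of Ttr between siRNA + TTR REVERSIR and siRNA stayed past the threshold under all 14 alternatives, between 2.03 and 2.17, and its interaction and its difference from the scrambled oligonucleotide stayed past it in every run too. The number of called genes, 1 as reported, was 21 with no filter on low counts, 14 by DESeq2 (which kept fewer genes), and 1 to 2 as single libraries were left out (2 without siRNA replicate 3). With no filter the count was 35 for the TTR against the scrambled REVERSIR with siRNA, 33 for the scrambled REVERSIR against siRNA, 498 for the TTR REVERSIR against PBS and 235 for the interaction. DESeq2 gave 174 for the TTR REVERSIR against PBS and 63 for the interaction, and the cause was not tested. The TTR REVERSIR against PBS gave 2883 calls and a Ttr change of 0.47 with library totals alone, 0 with the compared groups alone, 0 without PBS replicates 1 and 2 together (chosen after seeing the data) and 0 to 978 leaving out single libraries. It was 0 or 1 without PBS replicate 1 or 2 or without TTR REVERSIR replicate 1 or 3, 375 without TTR REVERSIR replicate 2 and 978 without PBS replicate 3. The interaction gave 1 to 459 calls in the same way, with 459 without PBS replicate 3, 69 without TTR REVERSIR replicate 2 and 58 without siRNA + TTR REVERSIR replicate 1. Of 107 single genes named in the main comparison, 15 of 1481 values under alternatives turned sign and 13 passed the threshold. Among those that turned, Ccdc22 was at 0.003 with no filter, 0.0032 with the replicate block and −0.29 to 0.19 leaving out single libraries, and in the same way Gm10119 ran from −0.32 to 0.14, Car3 from −0.15 to 0.0342, Gm16869 from −0.54 to 0.51, Rrm2 from −0.0295 to 0.21 and Snora68 from −0.0007 to 0.43. Of 224 values of list medians 17 moved by more than the spread between libraries.

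Same-numbered libraries of the 2 groups had correlations of their deviations of −0.066, −0.091 and 0.111, so the numbers were not taken as pairs, and not every library correlated best with its own number. A replicate block left 1 gene called in the main comparison, with Ttr at 2.12, and 2 for the interaction. Depth limits what can be said of genes with a mean log2 CPM under 3.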
